A study of Homo sapiens with 6 samples.

Results

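An unannotated pairing joins 2 splice sites that the annotation knows, but never to each other. The set described here holds every unannotated junction with a canonical-type motif and 10 or more uniquely mapped reads over all 6 libraries whose 5′ and 3′ splice sites each ended some annotated junction of the same strand. It comprised 7924 of the 780566 junctions of the study, and 7924 of the 32676 unannotated junctions with that many reads. The members were thus chosen by their pooled unique reads, a measured value. In all, 708 members lay at exactly 10 pooled reads, and 858 further pairings at 9 reads lay just outside. The genotype did not enter the choice.

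The libraries came from poly(A)+ RNA of K562, a human chronic myeloid leukaemia cell line that carries the BCR-ABL1 fusion. One group had a wild-type U2AF1 knock-in (WT, 3 libraries) and the other carried U2AF1 with the S34F substitution (S34F, 3 libraries). The series as a whole concerns missplicing in cells with SF3B1 hotspot mutations and loss of SUGP1, and the contrast examined here is S34F against WT. The labels do not say whether the replicates of a genotype are separate cultures or clones, so p-values measure only the spread between these libraries. How many clones stand behind each genotype is not given in the sources used here.

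In the spliceosome, the U1 particle first marks the 5′ splice site, and the U2AF heterodimer marks the 3′ splice site, where U2AF2 contacts the polypyrimidine tract and U2AF1 contacts the AG. When the 3′ site of the next exon is passed over, the same 5′ site can be joined to a 3′ site further downstream, which skips the exon between. S34F lies in the first zinc finger of U2AF1, recurs in myelodysplastic syndromes and leukaemias, and is known to alter which 3′ splice sites are used according to the base before the AG.

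The WT libraries held 19380519 to 25429944 uniquely mapped junction reads and the S34F libraries 18074706 to 39279169. The deepest and the shallowest library were S34F replicates 3 and 2. No pair of replicates agreed within sampling noise, with a chi-square per degree of freedom of 7.5 to 30.1 over 48476 junctions. Since S34F replicate 3 alone held 26.1% of all unique reads, it weighed most in the pooled minimum of 10 reads. Positions are hg19 coordinates of the intron's first and last base. Genes, sequences and marker genes of the cell line at hg19 positions were not analysed here.

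All 7924 pairings carried the GT-AG motif, and 0 carried a GC-AG or AT-AC motif, against 1.24% of the 153484 annotated junctions with 10 or more reads. They used 7444 distinct 5′ sites and 7459 distinct 3′ sites. Only 430 of the 5′ sites and 434 of the 3′ sites took part in more than one pairing, and at most 4 pairings shared a site. The introns were long, with a median of 4779.5 nt (quartiles 1834.75 and 11182.5) against 1503 nt for annotated junctions. They were also rare, with a median of 19 pooled reads against 240.

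The position of each pairing against the annotated introns of its own sites gave 4 classes. The largest class, 6514 pairings or 82.2%, spanned one annotated exon: the 5′ site had an annotated junction to a nearer 3′ site, and the 3′ site had one from a nearer 5′ site. No exon annotation was used. The exon spanned was inferred from the junctions, as the shortest stretch between such a nearer 3′ site and such a nearer 5′ site. In 6290 of these pairings the exon spanned was 1 to 500 nt long. Its median length was 116 nt, and 39.6% of these exons were a multiple of 3 in length, so that skipping them would keep the reading frame of a coding exon. The same held for 38.6% of 115819 annotated exons of that length range, whose median was 119 nt. A further 805 pairings spanned several exons, 403 partly overlapped the annotated introns of their sites without an exon between, and 202 were shorter than every annotated intron of either site. The median intron was 9944 nt where several exons were spanned and 1733 nt in the shortest class. In 196 pairings, the sites lay in separate loci, that is, in groups of annotated introns not linked by overlap or by a gap of up to 500 nt. Of these, 140 spanned one exon and 56 several. An exon longer than 500 nt can by itself separate loci so defined, so these need not be separate genes.

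**Figure D1:**
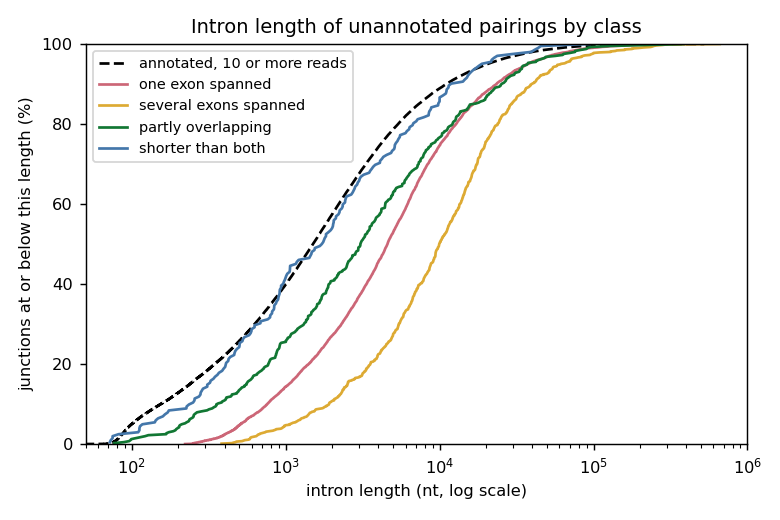
Cumulative share of junctions (percent) by intron length (nt, log scale), for annotated junctions with 10 or more reads (dashed) and for the 4 classes of unannotated pairings. Pairings that span several exons lie farthest to the right (median 9944 nt), and those shorter than both annotated introns lie close to the annotated curve.

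Within their sites most pairings were minor products. The median pairing took 3.39% of the reads of its 5′ site and 3.24% of those of its 3′ site, pooled over the libraries, and 1559 took under 1% of their 5′ site. At the other end, 421 pairings held over 50% of their 5′ site, 482 over 50% of their 3′ site, and 117 over 50% of both. Detection was broad: 3769 pairings were read in all 6 libraries, 2397 in 5 and 1326 in 4. A single library held over 80% of the reads of 54 pairings, in 26 cases S34F replicate 3 and in 24 cases WT replicate 3. No read came from WT in 139 pairings and none from S34F in 22. Over all 186160 junctions tested, 992 had no read in WT and 188 none in S34F. The counts are not depth-matched: S34F held more reads.

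Alignment evidence behind the pairings was measured by overhang and by multi-mapped reads. The longest read overhang reached 20 nt or more in 7909 pairings, and its median was 48 nt. It did so in 184221 of all 186160 junctions tested and in 24046 of 24752 other unannotated junctions. Multi-mapped reads made up 3.16% of the reads on pairings against 7.20% on all junctions. The latter include junctions of any motif and with few or no unique reads, so these figures are not like for like. In 6730 pairings there was no multi-mapped read, and in 45 they outnumbered the unique reads.

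Pairings took more of the junction reads in S34F on average, but the groups overlapped. Summed over all 7924 pairings, WT held 1799, 1414 and 1501 RPM (unique reads on the junction for each 1000000 unique junction reads of the library), and S34F held 1796, 2034 and 2119. The means were 1571 ± 202 in WT and 1983 ± 168 in S34F (SD, n = 3 each), a ratio of 1.26. WT replicate 1 lay 3.39 RPM above S34F replicate 1, and the other WT libraries lay below every S34F library. As a share of all reads on unannotated junctions, pairings took 14.4%, 13.7% and 13.1% in WT and 13.8%, 16.4% and 15.3% in S34F. The number of pairings seen, expected at the depth of the shallowest library, was 6647, 5926 and 5814 in WT and 6636, 6870 and 7094 in S34F.

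Of the difference of 412 RPM between the means, 380.0 came from pairings that spanned one exon. These summed to 1494, 1155 and 1233 RPM in WT and to 1502, 1732 and 1789 in S34F, with means of 1294 ± 178 and 1674 ± 152 (SD, n = 3 each). The groups did not overlap, but the gap between them was 7.53 RPM. Pairings over several exons had means of 147 ± 14.3 in WT and 159 ± 17 in S34F, and the groups overlapped. Partly overlapping pairings had means of 95.5 ± 8.34 and 109 ± 4.30, and those shorter than both annotated introns had means of 34.8 ± 3.83 and 39.9 ± 2.90, with overlap in each class. The 196 pairings between separate loci, of which 140 spanned one exon, had 57.6, 50.7 and 50.5 RPM in WT and 44.9, 46.2 and 47.1 in S34F. There every S34F library lay below every WT library. No test was made on these sums, because the members were chosen with earlier results in view.

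**Figure D2:**
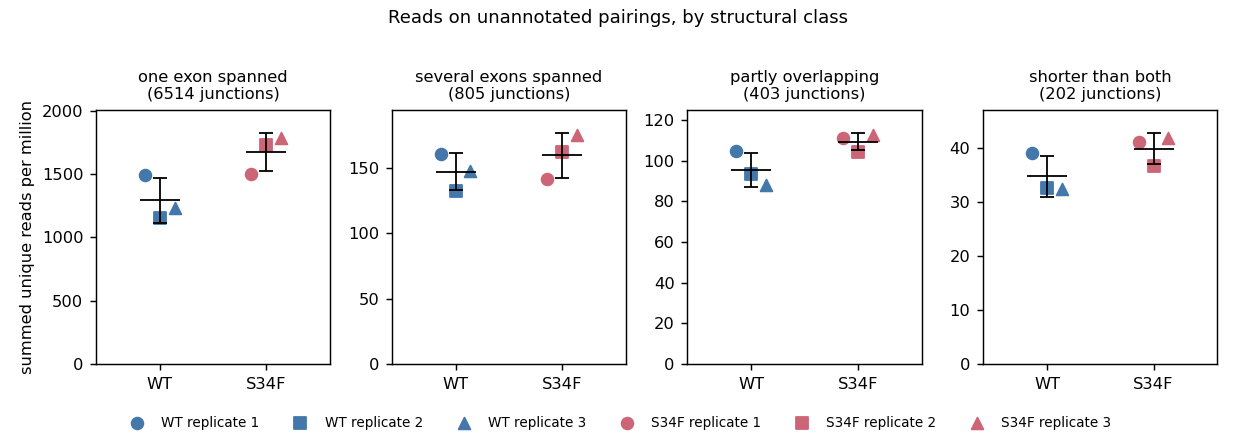
Summed RPM (unique reads scaled to the library's unique junction reads) on unannotated pairings in each library, by class; points are libraries, horizontal bars are group means and whiskers are SD (n = 3). In the class that spans one exon the 3 S34F libraries (1502 to 1789) lie above the 3 WT libraries (1155 to 1494), with WT replicate 1 close to S34F replicate 1.

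Other unannotated junctions with 10 or more reads showed smaller ratios of the means. Junctions from an unannotated 5′ site to an annotated 3′ site had a ratio of 1.13, those from an annotated 5′ site to an unannotated 3′ site 1.16, and those with neither site annotated 1.02. In each of these 3 groups the WT and S34F libraries overlapped.

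The abundance of single pairings was tested next with edgeR's quasi-likelihood test on the unique counts of all 186160 junctions with 10 or more pooled reads. In this test 24 of the 7924 pairings passed a Benjamini-Hochberg adjusted p of 0.05, of which 20 rose and 4 fell in S34F. Over all junctions tested, 0.324% passed (0.153% higher and 0.171% lower). The share of pairings called was near the background. Other unannotated junctions gave 45 rises and 18 falls among 24752 tested. In bulk RNA a change in abundance cannot be told apart from a change in the level of the whole transcript, nor fewer cells using a pairing from less use per cell. All S34F libraries lay above all WT libraries in 1434 pairings (18.1%, against 10.5% of all junctions) and below them in 441 (5.57%, against 7.69%). The count of calls rested on single libraries: it was 0 without WT replicate 2 (863 at an unadjusted p under 0.05), 1 without S34F replicate 3, 4 without WT replicate 3, 8 without S34F replicate 1 and 55 without WT replicate 1. Over all junctions tested, 0.00168% passed without WT replicate 2, 0.0113% without S34F replicate 3 and 0.424% without WT replicate 1.

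The called pairing with the smallest p-value was chr7:56128634-56130375, which spanned an exon of 103 nt. It had 0.590, 0.281 and 0.516 RPM in WT and 2.69, 3.10 and 3.31 in S34F. The lowest S34F library lay far above the highest WT library. The log2 change was 2.66 ± 0.32 (SE), with an edgeR adjusted p of 0.00503. The call was lost without WT replicate 2 and without S34F replicate 3. At its 5′ site the pairing took 1.39% ± 0.62 of the reads in WT and 9.86% ± 0.64 in S34F, a change that passed edgeR's share test (adjusted p = 0.000289) but stayed under 10 points.

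Among the 5 rises in abundance with the smallest p-values, the most-read pairing was chrX:154011783-154013325, which spanned an exon of 81 nt. It had 13, 11 and 19 reads in WT and 177, 78 and 130 in S34F, or 0.644 ± 0.29 against 5.06 ± 2.2 RPM. Its log2 change was 2.95 ± 0.38, with an edgeR adjusted p of 0.0112, lost only without WT replicate 2 among the leave-one-out fits. Its 5′ site share was 1.90%, 2.00% and 4.62% in WT and 28.3%, 15.7% and 19.6% in S34F, and its edgeR adjusted p of 0.000176 held in all 6 leave-one-out fits. The annotated junction from the same 5′ site took 97.2% in WT and 78.8% in S34F.

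The other 3 of these rises had lower read numbers. The pairing chr9:131455261-131456174 had 0.417 ± 0.15 RPM in WT and 2.75 ± 1.3 in S34F (edgeR adjusted p = 0.0163). Against its annotated competitor it stayed minor, at 0.250% ± 0.094 of the 5′ site in WT and 1.67% ± 0.60 in S34F. The pairing chr7:26230081-26232114 had 0.666 ± 0.091 and 3.12 ± 1.3 RPM (edgeR adjusted p = 0.0211). At its 3′ site it went from 13.7%, 7.46% and 7.69% in WT to 32.1%, 49.7% and 35.0% in S34F, without overlap. The third, chr19:34706567-34710610, had 0.509 ± 0.22 and 3.17 ± 1.0 RPM (edgeR adjusted p = 0.00890) and was also called in its 5′ site share. Each of these 3 lost its abundance call without WT replicate 2, without WT replicate 3 and without S34F replicate 3.

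The 4 pairings that fell in abundance also separated the groups. The pairing chr1:155278868-155279833 had 2.83, 2.33 and 2.17 RPM in WT and 0.597, 0.443 and 0.458 in S34F (log2 change -2.34 ± 0.31, edgeR adjusted p = 0.00737). The pairing chr19:15942167-15946027 had 3.46 ± 0.69 RPM in WT and 1.26 ± 0.24 in S34F (edgeR adjusted p = 0.0319). The pairing chr1:63944505-63974198 had 1.16 ± 0.19 and 0.198 ± 0.12 (edgeR adjusted p = 0.0389). The pairing chr1:225592229-225594365 had 1.11 ± 0.54 and 0.155 ± 0.10 (edgeR adjusted p = 0.0455), and it lost its call in each of the 6 leave-one-out fits. The first lost it without WT replicate 2 and without S34F replicate 3, and the other 2 kept it only without S34F replicate 2.

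Share of the 5′ site compares a pairing with the other junctions of the same 5′ site in the same library, so that transcript abundance and library size cancel. A total of 6187 pairings had 20 or more reads at their 5′ site in every library and 10 or more pooled reads on competing junctions. By edgeR's quasi-likelihood test over all 51522 such junctions, with an adjusted p under 0.05 and mean shares at least 10 percentage points apart, 80 pairings were called. Of these 73 rose and 7 fell in S34F. The background over all junctions tested was 2.11% called, 1.02% higher and 1.09% lower. Unannotated junctions that were not pairings also leaned to rises, with 70 rises and 30 falls among 8257 tested. Without the minimum difference they gave 229 and 92. Without the minimum difference 336 passed, 297 higher and 39 lower, against a background of 4.63% (2.35% and 2.28%). With a minimum of 20 points 17 rose and 5 fell, against a background of 0.918% (0.427% and 0.491%).

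Because a pairing with a small share cannot fall by 10 points, the directions were also counted where both could occur. Among the 531 pairings with a mean share of 10% to 90%, 46 rose and 6 fell. Over all 11453 junctions in that range, 3.75% rose and 4.03% fell. Without the minimum difference these pairings gave 46 rises and 7 falls, against 3.82% and 4.16%. Among the 5652 pairings with a mean share under 10%, 27 rose and 1 (chrX:24761447-24766427) fell by 10 points or more, against backgrounds of 0.387% and 0.117%. In that range 250 rose and 32 fell with no minimum difference, against backgrounds of 2.92% and 1.07%. All S34F libraries lay above all WT libraries in 1145 of the 6187 pairings (18.5%, against 12.7% of all junctions tested) and below them in 397 (6.42%, against 12.5%).

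**Figure D3:**
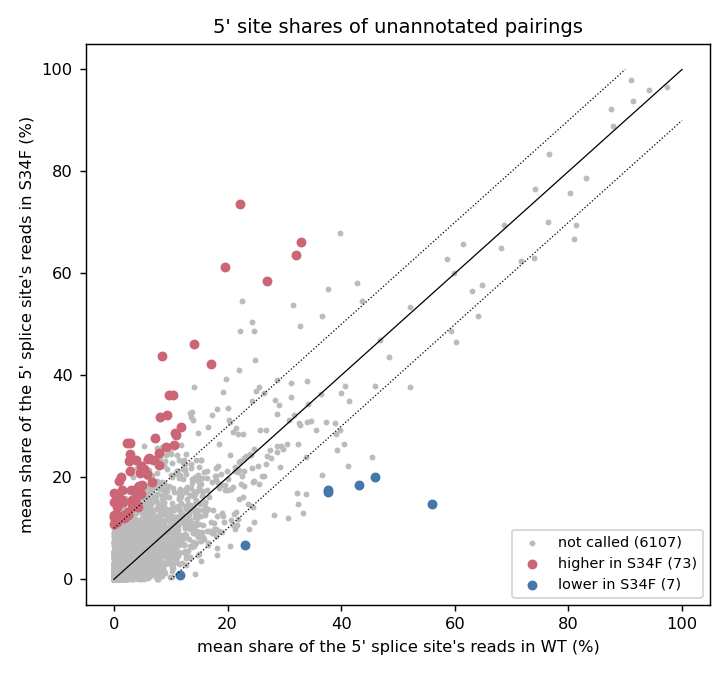
Mean share of the 5′ site's reads (percent) in S34F against WT for the 6187 pairings tested, with the 73 called higher in S34F in red and the 7 called lower in blue. The solid line marks equal shares and the dotted lines a difference of 10 percentage points; red points spread from a WT share of 0% up to 32.9%.

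By class, the pairings over one exon gave 68 rises and 4 falls among 5312 tested, and those over several exons gave 3 rises and 1 fall among 664. The partly overlapping ones gave 2 rises and 1 fall among 162, and those shorter than both annotated introns gave 1 fall among 49. No test of the difference between classes was made. The rises spanned differences of 10.1 to 51.5 points, with a median of 15.7. Their mean share had a median of 4.01% in WT and 19.2% in S34F. The competing junction with the most reads was annotated in 71 of the 73, and the rises lay on 19 chromosomes.

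In 66 of the 73 rises the exon spanned was 1 to 500 nt long, and its median length was 121 nt, against 115 nt in the 5175 such pairings tested. It was a multiple of 3 in 40 of the 66 (60.6%), against 39.9% of the pairings tested. With no minimum difference, it was so in 119 of 269 rises (44.2%). These are counts without a test.

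The calls depended on the libraries and on the tool. The number of calls was 9 without S34F replicate 3, 28 without S34F replicate 2, 32 without WT replicate 2, 46 without WT replicate 3, 46 without S34F replicate 1 and 169 without WT replicate 1. DESeq2 gave 13 calls, and limma on the log2 odds gave 0, with 1429 at an unadjusted p under 0.05. The share called over all junctions tested moved as well. It was 0.185% without S34F replicate 3 and 4.15% without WT replicate 1, against 0.207% and 3.19% of pairings. With DESeq2 it was 0.291%, against 0.210% of pairings, and with limma it was 0%.

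Changes in share were also summarised by read depth. The median change in log2 odds of the 5′ site share was 0.38 over the pairings and 0.00 over all junctions tested. By pooled reads on the junction, the median for pairings was 0.33 at 10 to 19 reads, 0.40 at 20 to 49, 0.51 at 50 to 99 and 0.31 at 100 or more. Over all junctions tested it was 0.20, 0.22, 0.16 and -0.13 in the same bins, and over other unannotated junctions 0.27, 0.27, 0.21 and 0.12. Unannotated junctions thus leaned to higher shares in S34F in each bin whether or not they were pairings, and pairings had the highest median. The values over all junctions include these unannotated ones, and annotated junctions were not binned apart. How far the pooled minimum, to which S34F replicate 3 contributes most, moves these medians was not tested.

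**Figure D4:**
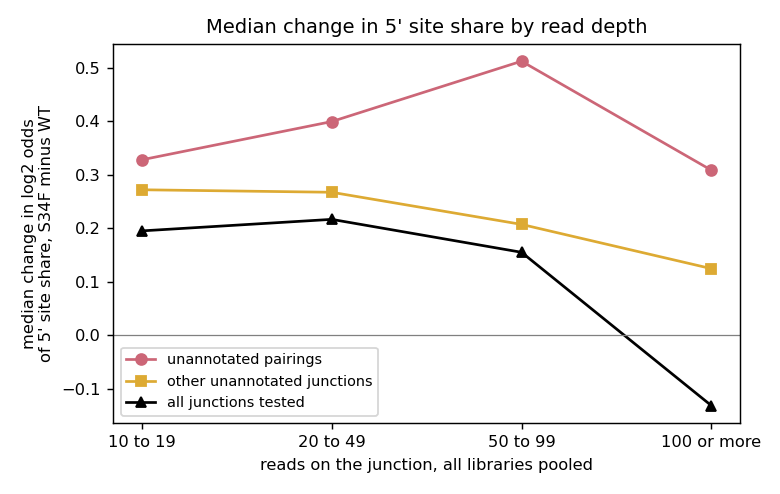
Median change in log2 odds of the 5′ site share (S34F minus WT) by pooled reads on the junction, for unannotated pairings (circles), other unannotated junctions (squares) and all junctions tested (triangles). The pairings lie highest in each bin, from 0.31 to 0.51, and the median of all junctions turns negative (-0.13) at 100 or more reads.

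The largest rise in 5′ site share was at a site on the X chromosome where both leading junctions were unannotated pairings. The pairing chrX:64808949-64936679 took 26.1%, 17.4% and 23.2% of the site in WT and 65.6%, 80% and 75.5% in S34F. The groups were far apart (22.2% ± 4.4 and 73.7% ± 7.3; edgeR adjusted p = 0.000991). From the same 5′ site, the pairing chrX:64808949-64813132 took 52.2%, 60.9% and 55.1% in WT and 26.6%, 8.57% and 9.43% in S34F (edgeR adjusted p = 0.00586). One share fell as the other rose, as they divide the same reads. The site had only 23 to 69 reads per library, and for WT replicate 2 the 4 of 23 reads gave a 95% Clopper-Pearson interval of 4.95% to 38.8%. These limits describe counting error alone, because without molecular identifiers several reads can stem from one molecule. The rise held in all 6 leave-one-out fits, and the fall was lost without S34F replicate 2 and without S34F replicate 3.

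On chromosome 4 the pairing chr4:83816001-83819141, over an exon of 83 nt, took 33.3%, 14.6% and 10.7% of its 5′ site in WT and 57.6%, 65.1% and 61.1% in S34F. It became the leading junction of the site in S34F: the annotated junction to the exon took 79.6% ± 12 in WT and 37.2% ± 4.4 in S34F. The edgeR adjusted p was 0.00568 and was lost only without S34F replicate 3 among the leave-one-out fits. Its abundance was called too, at 0.289 ± 0.16 and 1.77 ± 0.28 RPM (edgeR adjusted p = 0.0220), and that call was lost without WT replicate 2, WT replicate 3, S34F replicate 1 and S34F replicate 3.

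The pairing chr19:34706567-34710610, over an exon of 183 nt, took 12.7%, 8.88% and 3.94% of its 5′ site in WT and 53.3%, 36.7% and 41.1% in S34F. Its site had 98 to 360 reads per library, and no S34F library came near the WT range. The edgeR adjusted p was 0.000423 and held in all 6 leave-one-out fits. The annotated junction to the exon had 91.3% ± 4.7 in WT and 55.3% ± 8.7 in S34F. At the 3′ site, the pairing had 4.51% ± 2.4 in WT and 26.8% ± 5.7 in S34F (edgeR adjusted p = 0.00109), a call lost without S34F replicate 3.

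The pairing chr11:107969257-107976933 took 12.5%, 11.7% and 18.3% of its 5′ site in WT and 49.5%, 48.0% and 40.7% in S34F (edgeR adjusted p = 0.00263). The stretch it passed over was 713 nt long, and the annotated junction into that stretch went from 84.3% ± 3.7 to 53.1% ± 4.3. The call held in all 6 leave-one-out fits. The pairing already led its 3′ site in WT, at 68.5% ± 16 against 74.2% ± 8.2 in S34F, where 13 to 78 reads per library were too few for the test.

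The remaining rises among the 10 largest were less stable. The pairing chr19:5218544-5219320, over an exon of only 12 nt, took 41.4%, 25.9% and 31.4% in WT and 56.1%, 83.9% and 58.7% in S34F (edgeR adjusted p = 0.0297). The pairing chr10:75481263-75485718, over an exon of 189 nt, took 37.3%, 13.5% and 30.0% in WT and 61.5%, 57.6% and 56.7% in S34F (edgeR adjusted p = 0.0311). The pairing chr1:156907289-156909339, over an exon of 96 nt, took 14.3%, 8% and 9.09% in WT and 35.6%, 50% and 22.7% in S34F (edgeR adjusted p = 0.0493). In all 3 the groups did not overlap, and the call was lost in each leave-one-out fit but that without WT replicate 1.

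Among the 10 largest rises, 3 were of the other classes. The pairing chr2:15674766-15691616 spanned several exons and took 11.1%, 8.70% and 9.09% of its 5′ site in WT and 33.3%, 35.1% and 40.0% in S34F (edgeR adjusted p = 0.00738, lost without S34F replicate 3). The pairing chr6:27095181-27100303 partly overlapped its annotated introns and took 24.9%, 34% and 37.2% in WT and 73.7%, 63.3% and 53.6% in S34F (edgeR adjusted p = 0.00580). It had 984 pooled reads, the most in its class, and its call was lost without S34F replicate 1 and without S34F replicate 2. At its 3′ site the share was 77.3% ± 9.5 in WT and 76.8% ± 7.0 in S34F, which did not pass edgeR's test (adjusted p = 0.956).

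The third of these shared its 5′ site on chromosome 7 with a called fall. The pairing chr7:106415647-106420440 took 20.3%, 17.3% and 13.7% in WT and 40.0%, 30.7% and 55.7% in S34F (edgeR adjusted p = 0.0277). The pairing chr7:106415647-106421095 took 46.1%, 40.4% and 51.6% in WT and 11.7%, 33.0% and 15.7% in S34F (edgeR adjusted p = 0.0321). Both spanned several exons, and neither pair of groups overlapped. The rise was lost in 4 of 6 leave-one-out fits and the fall in 3.

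**Figure D5:**
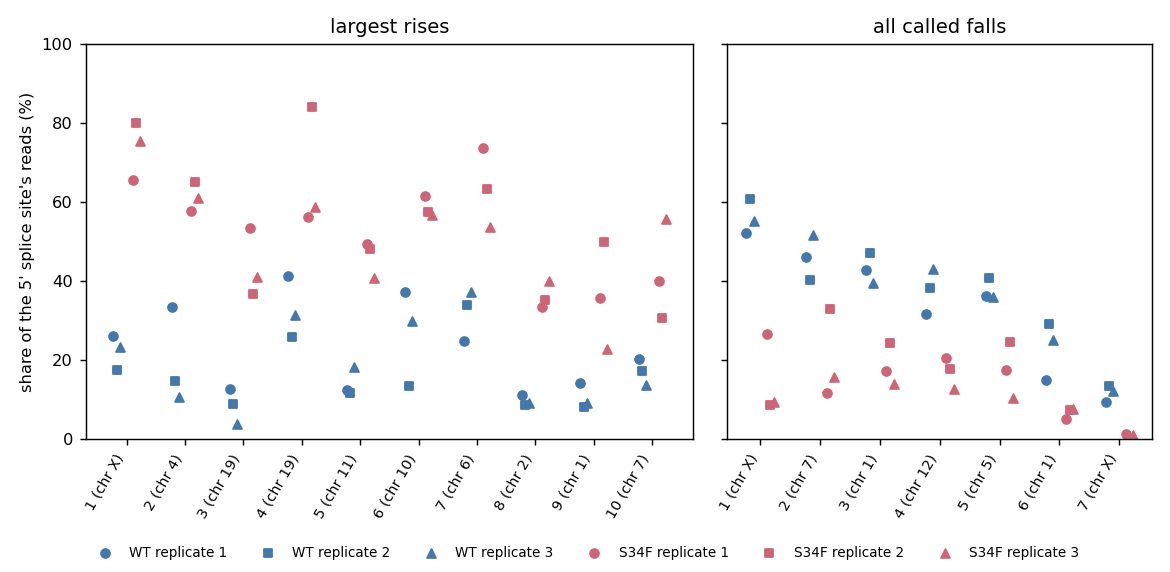
Share of the 5′ site's reads (percent) in each library for the 10 largest called rises (left) and all 7 called falls (right), in order of the difference in means; points are libraries, blue WT and red S34F. The WT and S34F points do not overlap within any of the pairings drawn; the first rise and the first fall share a 5′ site on the X chromosome.

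The other 5 falls had these values. The pairing chr1:155278868-155279833, over an exon of 177 nt, took 42.9%, 47.2% and 39.6% of its 5′ site in WT and 17.3%, 24.2% and 13.8% in S34F (edgeR adjusted p = 0.0116). It is also the pairing with the smallest p-value among the falls in abundance. The pairing chr12:74551665-74678804, with an intron of 127140 nt, took 37.6% ± 5.7 in WT and 17.1% ± 4.0 in S34F (edgeR adjusted p = 0.0179). The pairing chr5:1629746-1632959, over an exon of 108 nt, took 37.6% ± 2.7 and 17.5% ± 7.1 (edgeR adjusted p = 0.0298).

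The smallest falls started from lower shares. The pairing chr1:161137918-161138202, with an intron of 285 nt shorter than both annotated ones, took 14.9%, 29.2% and 25% in WT and 5.2%, 7.46% and 7.73% in S34F (edgeR adjusted p = 0.0161). The pairing chrX:24761447-24766427 had 4, 10 and 6 reads in WT and 1, 0 and 1 in S34F, or 11.7% ± 2.2 and 0.846% ± 0.74 of its site (edgeR adjusted p = 0.0163). For S34F replicate 2 the 0 of 44 reads allow a share of up to 6.82%, taken as 3 reads over the reads of the site. The 95% Clopper-Pearson interval ends higher, at 8.04%. Later limits for 0 reads were also taken as 3 reads over the reads of the site. None of the 7 falls kept its call in all 6 leave-one-out fits, and DESeq2 called 1 of them, the fall on the X chromosome beside the largest rise.

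Of the 73 rises, 8 kept their call in all 6 leave-one-out fits, and DESeq2 called 12. With only 7 falls, these counts cannot show whether rises were the more stable. Of the 8, chrX:64808949-64936679, chr19:34706567-34710610, chr11:107969257-107976933 and chrX:154011783-154013325 are given above. The other 4 were singled out after their values were seen. The pairing chr19:41129638-41131761, over an exon of 147 nt, took 5.10%, 2.05% and 1.75% of its 5′ site in WT and 14.6%, 21.9% and 15.9% in S34F (edgeR adjusted p = 0.00244). At its 3′ site it had 4.94% ± 2.9 in WT and 29.4% ± 5.6 in S34F (edgeR adjusted p = 0.00262).

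The remaining 3 were close to 0 in WT. The pairing chr17:26913201-26918715, over an exon of 75 nt, had 2, 0 and 4 reads in WT and 21, 19 and 28 in S34F, or 1.65% ± 1.95 and 15.2% ± 3.4 of the site (edgeR adjusted p = 0.00282). The pairing chr16:3075990-3076251, over an exon of 104 nt, had 2, 0 and 0 reads in WT and 11, 12 and 29 in S34F, or 0.483% ± 0.84 and 14.2% ± 3.3 (edgeR adjusted p = 0.00187). Its intron of 262 nt was among the short ones of the class. The pairing chr5:149398261-149404067, over an exon of 147 nt, had 1, 0 and 0 reads in WT and 9, 9 and 14 in S34F, or 0.358% ± 0.62 and 11.2% ± 4.3 (edgeR adjusted p = 0.00642). Where a WT library had 0 reads in these 3, its site depth allows a share of up to 1.89% to 4.05%.

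A further 5 rises had no read in WT, also singled out after their values were seen, and all spanned one exon. The S34F reads were 6, 4 and 3 at chr10:52220575-52279590, 12, 4 and 2 at chr10:64975216-64976966, and 2, 6 and 7 at chr20:33345908-33356266. They were 2, 6 and 5 at chr4:89516766-89570990, and 5, 4 and 6 at chr5:154287379-154292458. The WT sites had 21 to 69 reads per library, so that 0 reads allow a share of up to 4.35% to 14.3%. All their reads came from S34F, so they reached the minimum of 10 pooled reads through that group alone and had to differ. They are given as a description, and their calls support nothing here. Any other named pairing with under 10 reads in either group likewise reached the minimum only with the reads of the other group.

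The single rise whose groups overlapped was chr2:201721709-201722695, with 9.76%, 2.13% and 1.72% in WT and 9.33%, 27.3% and 18.1% in S34F (edgeR adjusted p = 0.0284). The rises outside the one-exon class that are not among the 10 largest were chr12:1887192-1893045, over several exons, and chr1:101467101-101479265, partly overlapping. The first had 1.48% ± 2.6 in WT and 17.4% ± 4.0 in S34F, and the second 6.77% ± 1.1 and 19.1% ± 5.8 (edgeR adjusted p = 0.00403 and 0.0268).

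Measured from the other end, the share of the 3′ site gave the same direction. Of 6195 pairings tested among 48269 junctions, edgeR called 46 at 10 or more points, of which 44 rose and 2 fell. The background was 0.934%, with 0.458% higher and 0.476% lower. Other unannotated junctions gave 17 rises and 5 falls among 6549 tested. With no minimum difference 172 rose and 14 fell (background 2.04%, with 1.05% and 0.986%), and with 20 points 15 rose and 1 (chr2:111966239-112101637) fell (background 0.452%, with 0.207% and 0.244%). The rises were 10.1 to 41.8 points, with a median of 15.6. A total of 34 rose in both shares, which is 46.6% of the rises at the 5′ site and 77.3% of those at the 3′ site. The count was 1 without S34F replicate 3, 7 without WT replicate 2, 7 without S34F replicate 2, 13 without S34F replicate 1, 22 without WT replicate 3 and 130 without WT replicate 1, while DESeq2 gave 16 and limma 0 (1405 at an unadjusted p under 0.05). Over all junctions tested, 0.0102% were called without S34F replicate 3 and 2.77% without WT replicate 1. DESeq2 called 0.379% of them and limma 0%.

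The largest rise at a 3′ site was chr22:22661957-22664100, over an exon of 123 nt. It took 9.52%, 4.44% and 5.41% of its 3′ site in WT and 44.0%, 44.4% and 56.2% in S34F (edgeR adjusted p = 0.00155), a call lost without S34F replicate 3. At its 5′ site it took 19%, 8.70% and 15.4% in WT and 71.0%, 75% and 80.4% in S34F. That site had as few as 13 reads in a library and was outside the test. The groups were nonetheless apart at both ends. The next largest were chr19:5218544-5219320, with 30.8% ± 7.4 of its 3′ site in WT and 62.8% ± 15 in S34F, and chr10:75481263-75485718, with 20.9% ± 12 and 52.6% ± 6.9.

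The 2 falls at a 3′ site included chr2:111966239-112101637, whose intron was 135399 nt long. It took 31.2%, 23.7% and 38.2% of the 3′ site in WT and 0%, 15.2% and 3.85% in S34F (edgeR adjusted p = 0.0271). The other lay on chromosome 8 and had 22.4% ± 3.7 in WT and 3.06% ± 2.7 in S34F (edgeR adjusted p = 0.0481).

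None of the 10 most-read pairings passed edgeR's test of abundance (adjusted p = 0.190 to 0.995). The most-read of all, chr1:46769493-46775826, spanned an exon of 27 nt and had 9.83 to 18.1 RPM in WT and 13.4 to 25.3 in S34F, which overlapped. It took 2.30% ± 0.73 of a heavily used 5′ site in WT and 3.12% ± 0.60 in S34F. The second, chr1:36096946-36106942, over an exon of 123 nt, had 14.6, 13.2 and 12.8 RPM in WT and 13.3, 14.2 and 15.9 in S34F. It took 23.2% ± 1.7 of its 5′ site in WT and 24.3% ± 0.61 in S34F, against 76.8% and 75.7% for the annotated junction to the exon.

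Of the others among the 10 most read, 3 passed the test at the 5′ site besides the pairing on chromosome 6, and one of these, on chromosome 11, is described last. The pairing chr20:60962731-60963364, over an exon of 72 nt, took 0.628%, 0.392% and 0.642% of its 5′ site in WT and 1.73%, 2.17% and 1.49% in S34F (edgeR adjusted p = 0.00328). Its site had 11582 to 24362 reads per library, and the change passed in all 6 leave-one-out fits at a difference of only 1.24 points. The pairing chr7:26232994-26235466, over an exon of 120 nt, took 9.84%, 1.55% and 1.12% in WT and 15.6%, 15.5% and 11.8% in S34F (edgeR adjusted p = 0.0151). It is one of the 73 rises and lies next to chr7:26230081-26232114, whose abundance rose. Its call was kept only without WT replicate 1 and without WT replicate 3.

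Among the 10 most read, neighbouring pairings on chromosome 9 did not pass either test. The pairing chr9:139563126-139564365 took 34% ± 6.8 of its 5′ site in WT and 39.0% ± 3.4 in S34F, and chr9:139564462-139565401 took 25.4% ± 4.4 and 22.2% ± 3.6. The pairing chr11:810040-811596 took 1.39% ± 0.23 and 1.40% ± 0.25. The groups overlapped in all 3.

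The other classes were led by pairings of contrasting share. Over several exons the most-read pairing was chr3:33633989-33644443, which held nearly its whole 5′ site although unannotated, with 91.0%, 87.5% and 94.8% in WT and 98.8%, 96.7% and 98.4% in S34F. Its 5′ site share passed edgeR's test (adjusted p = 0.0409) at a difference under 10 points. Among pairings shorter than both annotated introns, chr18:13114251-13116372 took 52.0% ± 2.5 of its 5′ site in WT and 53.3% ± 9.0 in S34F, with overlap.

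One region of chromosome 11, singled out after its values were seen, held 8 pairings on the minus strand that combined a few sites over long distances. The pairing chr11:5367584-5526798 spanned an exon of 35 nt in an intron of 159215 nt and took 17.8%, 18.9% and 18.8% of its 5′ site in WT and 8.07%, 10.2% and 10.2% in S34F (edgeR adjusted p = 0.0440). From the same 5′ site, chr11:5367130-5526798 took 2.77%, 2.89% and 5.96% in WT and 1.14%, 0.544% and 0.882% in S34F (edgeR adjusted p = 0.00852). The annotated junction that led this 5′ site took 65.2% ± 2.4 in WT and 75.9% ± 2.7 in S34F. Both pairings were thus lower in S34F at a site where the annotated choice was higher, with differences under 10 points. The second call was lost without S34F replicate 2 and without S34F replicate 3, and the first was kept only without WT replicate 1.

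Elsewhere in that region the groups mostly overlapped. The pairing chr11:5291387-5367002 took 13.2% ± 2.3 of its 5′ site in WT and 12.7% ± 3.1 in S34F. The pairing chr11:5303182-5367002, from the same 5′ site, took 10.1% ± 0.82 and 11.2% ± 3.3. A further 4 pairings joined the 5′ site at position 5526580 to the 3′ sites of the former ones and had 10 to 61 pooled reads each. None of them passed the test at the 5′ site. The pairing chr11:5367584-5526580 took 5.76%, 7.32% and 9.52% in WT and 1.44%, 5.33% and 2.71% in S34F. The pairing chr11:5367130-5526580 took 2.62%, 2.44% and 2.86% in WT and 1.44%, 0% and 0% in S34F. In both, every S34F library lay below every WT library, at 0 to 18 reads per library. In the others the groups overlapped. The 8 pairings share sites and reads and are not independent of each other.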

How the data were processed

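Poly(A)+ RNA of 6 K562 libraries had been sequenced as paired-end reads, per the labels' protocols. The authors deposited 1 table per library, aligned with STAR to hg19, per the submitters' processing notes; the STAR version and annotation are not given in the sources used here. Deposited values are raw counts of unique and of multi-mapped reads per junction, with overhang, strand, motif and annotation codes. A junction missing from a table was taken as 0. No gene or sequence of hg19 was used.

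The 6 tables were joined on position (Python 3.11.15, pandas 2.3.3). Counts were tested with edgeR 4.0.16 (R 4.3.3; robust quasi-likelihood F-test, legacy mode), with Benjamini-Hochberg adjustment over all junctions tested. The abundance test used TMM factors. Each share test used 2 counts per library, an intercept per library and the interaction with S34F, and its coefficient is the change in log2 odds. The SE is the absolute coefficient over the square root of F. Sites needed 20 reads in every library and 10 pooled reads on each side. DESeq2 1.42.0 and limma 3.58.1 (log2 odds with a pseudocount of 0.5) were alternatives. On simulated counts, changes of 4 on the log2 scale were recovered in 78% of cases for abundance (186160 junctions), 57% for the 5′ site share (51522) and 50% for the 3′ site share (48269), and changes of 2 in 58%, 4% and 6%. Only 100 junctions were changed at each size in a simulation. Because the adjustment depends on how many junctions change, these rates need not hold for the data. Counts per library limit precision as given with each value.

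The members, classes and tests were chosen with earlier results of these data known. Named were the 10 most-read members, the 10 largest called differences in 5′ site share in each direction, the 5 smallest p-values among abundance calls in each direction and the most-read member of each class; others are said to be singled out after their values were seen, and so are the 3 largest rises at the 3′ site and the members behind counts of 5 or fewer.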

Additional observations from a re-analysis of the deposited data

Results flagged for a closer look

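Outside the pairings described, 50842 pairings of annotated sites had under 10 unique reads in all, and their multi-mapped reads entered no comparison. These came to 181, 175 and 161 RPM in WT and to 211, 218 and 258 in S34F. The means were 172 ± 10.4 and 229 ± 25.3 (SD, n = 3 each), a difference of 56.9 on that scale, and the groups did not overlap. The item was listed because the signal in S34F lay above that in the WT control libraries. The difference was not tested. Over all junctions, multi-mapped reads for each unique read were also higher in every S34F library than in any WT library.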

How the results depend on the processing

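The abundance count of 24 calls became 45 with DESeq2, 15 with filterByExpr (895 pairings tested), 105 without a low-count filter, and 0 to 55 when each library was left out in turn. The 80 calls at the 5′ site became 13 with DESeq2, 0 with limma (1429 at an unadjusted p under 0.05), 45 with 50 reads required at the site, 44 without a low-count filter, 336 without a minimum difference, 22 at 20 points, and 9 to 169 with a library left out. The alternatives chosen after seeing the data gave 52 among 535 pairings with mean shares of at least 10%. They gave 58 among 988 pairings with 50 or more pooled reads. Over all junctions at a mean share of at least 10%, 1.51% rose and 1.82% fell. Over all junctions at 50 to 99 pooled reads, 2.38% rose and 0.944% fell, and at 100 or more, 1.27% and 1.75%. The 46 calls at the 3′ site became 16 with DESeq2, 0 with limma (1405 at an unadjusted p under 0.05), 27 with 50 reads at the site, 22 without a filter, 186 without a minimum difference, 16 at 20 points, and 1 to 130 with a library left out. Leaving out a library leaves fewer libraries, filterByExpr and a site minimum of 50 reads test fewer junctions, and no low-count filter tests more; otherwise the cause was not tested. Adding multi-mapped reads, an overhang of at least 20 nt and library size without TMM kept each count within 1.5 times. The share called over all junctions tested changed with the settings too. For abundance it was 0.799% with DESeq2, 0.275% with filterByExpr, 0.475% without a low-count filter and 0.00168% to 0.496% with a library left out. With a library left out it was 0.185% to 4.15% at the 5′ site and 0.0102% to 2.77% at the 3′ site. With 50 reads required at the site it was 1.90% at the 5′ site and 0.890% at the 3′ site. Without a low-count filter it was 0.187% and 0.0895%, without a minimum difference 4.63% and 2.04%, and at 20 points 0.918% and 0.452%.

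The summed difference of 412 RPM was 208 with a minimum of 50 pooled reads, since fewer pairings then count, and 333 to 525 with a library left out. The number of pairings was 3762 at 20 pooled reads, 1153 at 50, 14987 at 5 and 58766 with no minimum. Same-numbered libraries did not deviate together (correlations -0.117, -0.158 and -0.0444), which gave no sign that the numbers pair them. Some differently numbered ones did: 0.210 for WT replicate 1 with S34F replicate 2, 0.134 for WT replicate 2 with S34F replicate 3, and 0.145 for WT replicate 3 with S34F replicate 1. The remaining correlations were -0.0984 to 0.00751. The correlations of each library nearly cancel, so the positive ones are no separate evidence, and such small values cannot settle which libraries pair. Whether libraries shared a batch across genotypes was not tested, and no block by those pairs was fitted. A block by replicate number gave 32, 87 and 43 calls for abundance, 5′ and 3′ site share. These were 0.404%, 1.41% and 0.694% of the pairings tested, against 0.582%, 1.79% and 0.719% of all junctions tested. For the named pairings 732 results under alternatives gave 501 on the same side of the threshold, 221 no longer past it, 1 newly past it and 9 moved, and 0 turned direction. Through the minimum reads at a site and on each side, read depth kept the share tests to 6187 (5′ site) and 6195 (3′ site) of the 7924 pairings.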
